A study of Mus musculus with 6 samples.

Results

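The genes described here are 41 genes of mitosis and the G2/M transition, taken as the entries of the deposited count table whose symbol stood on a list of 41 names. They were 41 of 22377 genes in the table, and all 41 were among the 13884 genes with enough counts to be tested. The 6 RNA-seq libraries were 3 labelled wt and 3 labelled ko and knockdown, each from a separate biosample of mouse tumor. By the study's methods, macrophages were isolated by flow sorting (CD45+ CD11b+ F4/80+) from tumors grown in Npm1+/+ or Npm1+/- hosts, to learn which genes depend on Npm1, the gene for the nucleolar chaperone nucleophosmin. The tumors grew from LLC, a mouse lung carcinoma line, placed under the skin of male and female mice 6 to 8 weeks old, and were taken 2 weeks later. The Npm1 deletion is carried by every cell of the host and not by macrophages alone, and homozygous loss is lethal to embryos, so the mutant mice keep 1 intact allele. The labels name neither a genotype nor a sort, and describe RNA from whole tumor and a small RNA protocol, a difference that could not be settled from the sources. The groups are therefore called wt and labelled knockdown.

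Npm1 itself went against the label. Its level in CPM (counts relative to the library total, scaled between libraries by the TMM method) was 142, 380 and 381 in wt 1, 2 and 3, and 441, 499 and 343 in the libraries labelled knockdown 1, 2 and 3. The log2 fold change, always given as labelled knockdown minus wt, was 0.51 (SE 0.36, adjusted p = 0.436, quasi-likelihood test of edgeR, Benjamini-Hochberg adjusted), and 0.16 without wt 1. The targeted gene was therefore no lower under the knockdown label. Total counts ranged from 36550775 to 38147320, so depth hardly differed. Library wt 1 stood apart on the first principal component of all genes, at -108 against -4.54 to 52.0 for the other 5 libraries, and fold changes that turn on it are given also without it.

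Cells enter mitosis when cyclin B binds and activates the kinase Cdk1. The transcription factors Foxm1 and B-Myb, the latter with the MuvB complex, switch on most genes of this program late in the cell cycle. Their promoters often carry a cell cycle homology region (CHR), bound by MuvB, and CCAAT boxes, bound by NF-Y. Because the mRNAs and proteins are made mainly in dividing cells, Ki-67 (Mki67) and Top2a are widely used to mark proliferating cells, including proliferating macrophages in tumors.

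Promoter sequence was found for 33 of the 41 genes, as the 250 bases before the RefSeq start site in GRCm38.p6. The letters TTTGAA (CHR) or their reverse complement TTCAAA were present for 10 of the 33 genes (30.3%), against 15.2% of 16689 genes with a promoter sequence. CCAAT or its reverse complement ATTGG was present for 24 of them (72.7% against 38.7%), and both motifs for 9 (27.3% against 5.59%). The 10 genes with the CHR letters were Ccnb2, Cdc20, Cdk1, Ect2, Kif11, Kif2c, Mki67, Prc1, Top2a and Ube2c. These shares were not particular to the 41. Of 61 mitotic genes outside the 41, 44.3% had the CHR letters, 60.7% CCAAT and 31.1% both. Of 37 genes of DNA replication and G1/S, the shares were 13.5%, 59.5% and 10.8%. A match of letters is a description of these windows and not a bound site, and a match to one motif can share at most 1 letter with a match to the other. The 6 windows shown, each 110 bases long, are those of 5 genes with both motifs, from 4 role groups (Cdc20 and Ube2c share one), and of Cenpa, the gene in the list whose level varied least, whose promoter held CCAAT boxes but no TTTGAA. They read 5′ to 3′ on the strand of the gene, with both motifs in capitals.
Cdk1: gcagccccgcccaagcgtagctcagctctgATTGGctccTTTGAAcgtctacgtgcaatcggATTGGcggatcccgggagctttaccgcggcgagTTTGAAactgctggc
Cdc20: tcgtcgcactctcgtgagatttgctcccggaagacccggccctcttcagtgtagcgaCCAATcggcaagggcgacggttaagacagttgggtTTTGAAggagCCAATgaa
Kif11: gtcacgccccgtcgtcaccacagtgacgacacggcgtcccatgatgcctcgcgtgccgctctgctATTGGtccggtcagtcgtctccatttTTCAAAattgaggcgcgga
Ube2c: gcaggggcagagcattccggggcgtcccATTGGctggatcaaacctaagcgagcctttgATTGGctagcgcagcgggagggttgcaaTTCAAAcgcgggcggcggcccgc
Mki67: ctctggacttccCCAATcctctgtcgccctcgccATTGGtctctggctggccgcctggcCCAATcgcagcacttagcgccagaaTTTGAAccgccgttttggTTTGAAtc
Cenpa: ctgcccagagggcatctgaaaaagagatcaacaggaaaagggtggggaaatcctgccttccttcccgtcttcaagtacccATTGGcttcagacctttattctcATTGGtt
The Cdk1 window was chr10:69352913-69353022 (minus strand), ending 1 base before the start site, with 2 CHR and 2 CCAAT matches. The Cdc20 window was chr4:118437344-118437453 (minus strand) and the Kif11 window chr19:37376272-37376381 (plus strand). The windows of Ube2c at chr2:164769813-164769922 (plus strand) and of Mki67 at chr7:135716470-135716579 (minus strand) held the CHR letters 1 and 2 times. The Cenpa window was chr5:30666697-30666806 (plus strand). The median log2 fold change was 0.82 for the 10 genes with the CHR letters and 1.02 for the 23 without. Without wt 1 these medians were 0.43 and 0.57.

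All 41 genes had a higher estimate in the libraries labelled knockdown, but none passed the threshold. The median log2 fold change was 0.92, against 0.022 over all genes tested, and a higher estimate was found for 52.1% of all genes. The count of genes with an adjusted p under 0.05 was 0 of 41, beside a background of 0% of all genes, and the adjusted p of the 41 ran from 0.328 to 0.845. At an unadjusted p under 0.05, 1 of the 41 was higher (2.44%), against 6.9% of all genes, and it was Cdca8. DESeq2 called 0 of the 41 at the adjusted threshold (background 0.778%), and at the unadjusted one 10 of the 41 were higher (background 8.17%). With limma on log2 FPKM plus 1 these counts were 0 and 24 (background 15.9% at the unadjusted threshold). The estimates thus all lay on one side, and with all 6 libraries none of these tools called any of the 41 genes.

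In 21 of the 41 genes (51.2%) the groups did not overlap and the lowest labelled knockdown library was above the highest wt library, against 13.3% of all genes. None had the reverse order, which 12.6% of all genes had. Without wt 1 the median log2 fold change was 0.49, and all 41 estimates were above 0. The count without overlap was again 21 (background 16.6%), but wt 1 was the lowest library for 40 of the 41 genes, so leaving it out could not alter that count for them. At an unadjusted p under 0.05, 18 of the 41 were then higher, against a background of 6.81%. That count depended on which library was left out. It was 23 without wt 2 (background 9.79%) and 1 without wt 3 (8.83%). It was 0 without labelled knockdown 1 (2.75%), 0 without labelled knockdown 2 (1.81%) and 2 without labelled knockdown 3 (7.39%). DESeq2 without wt 1, an alternative chosen after seeing the data, called 1 of the 41 genes (background 0.627%), Cenpf, with a log2 fold change of 0.78 and an adjusted p of 0.022. The count without overlap turned on wt 2 and on labelled knockdown 3: it was 38 without wt 2 (background 23.1%) and 37 without labelled knockdown 3 (background 26.9%).

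**Figure D1:**
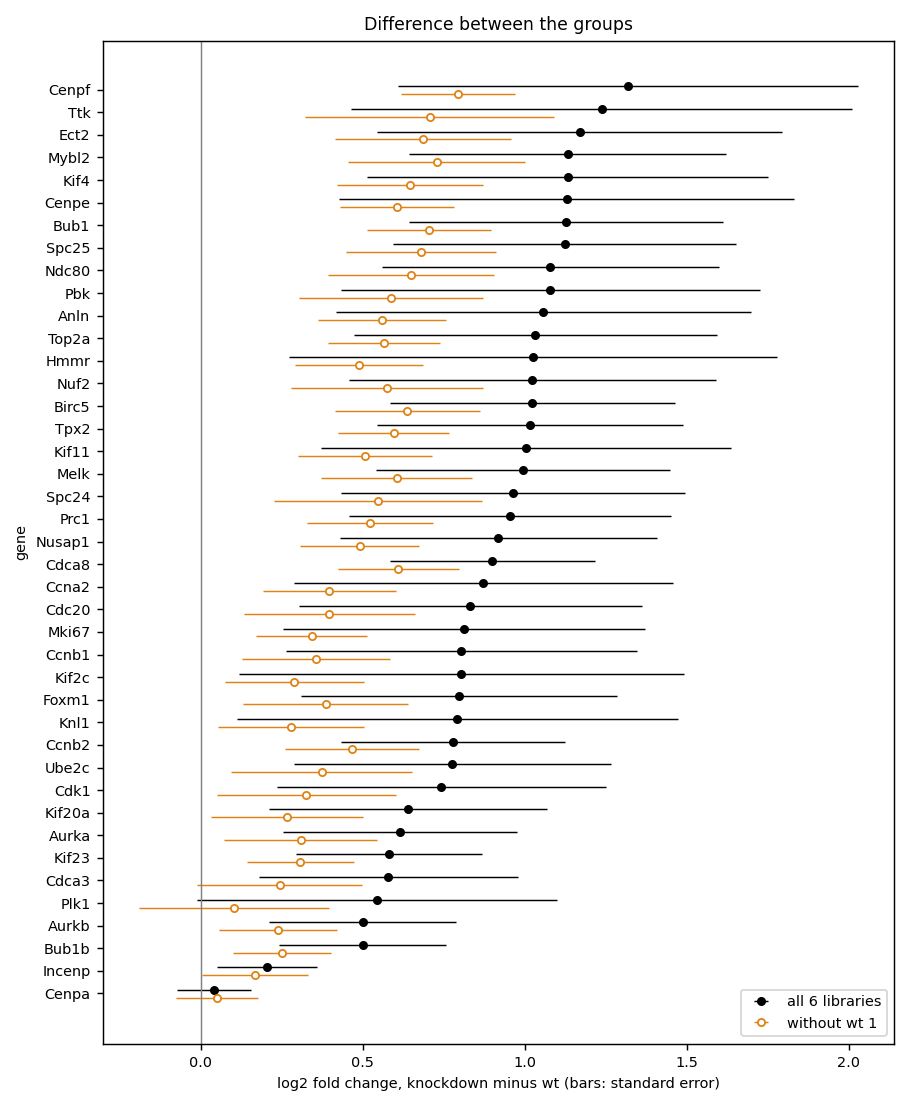
Log2 fold change (labelled knockdown minus wt, horizontal axis) of each of the 41 genes (vertical axis), with bars for the standard error, from all 6 libraries (filled) and without wt 1 (open). All points lie above 0, from 0.04 for Cenpa to 1.32 for Cenpf with all libraries, and none of the 41 passed the adjusted threshold in edgeR.

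In 38 of the 41 genes wt 1 was the lowest library and labelled knockdown 2 the highest, while the order of the other libraries differed between genes. Labelled knockdown 3 was below wt 2 in 18 genes. Cenpa and Incenp, described below, varied least between libraries. The summed CPM was 241, 821 and 699 in wt 1, 2 and 3 (mean 587 ± 306, SD, n = 3) and 1048, 1197 and 835 in labelled knockdown 1, 2 and 3 (mean 1027 ± 182, SD, n = 3). In these sums the groups did not overlap, but labelled knockdown 3 lay only just above wt 2. These reads were between 0.0225% (wt 1) and 0.137% (labelled knockdown 2) of all counts. Library wt 1 was the lowest for 40 genes and labelled knockdown 2 the highest for 39. In 32 genes the wt libraries had the order wt 1, wt 3, wt 2 from low to high. In 35 genes wt 1 was at least 2-fold below both other wt libraries, as it was in 12.5% of all genes, and the median difference of wt 1 from the mean of the other wt libraries was -2.07 on the log2 scale against 0.0067 over all genes. The median coefficient of variation of the 41 genes was 64.4% among the wt libraries, wt 1 included, and 19.5% among labelled knockdown libraries. The mean sum of wt 2 and wt 3 alone was 760 CPM.

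Set against wt 2 alone, labelled knockdown 2 was higher in 41 of 41 genes (median log2 difference 0.55), labelled knockdown 1 in 37 (0.39) and labelled knockdown 3 in 23 (0.05). Within the wt group, wt 3 was higher than wt 2 in 8 genes (median -0.30). Within the other group, labelled knockdown 3 was higher than labelled knockdown 2 in 0 of 41 genes (median -0.52). The difference between labelled knockdown 3 and wt 2 was thus smaller than the differences between libraries that share a label.

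**Figure D2:**
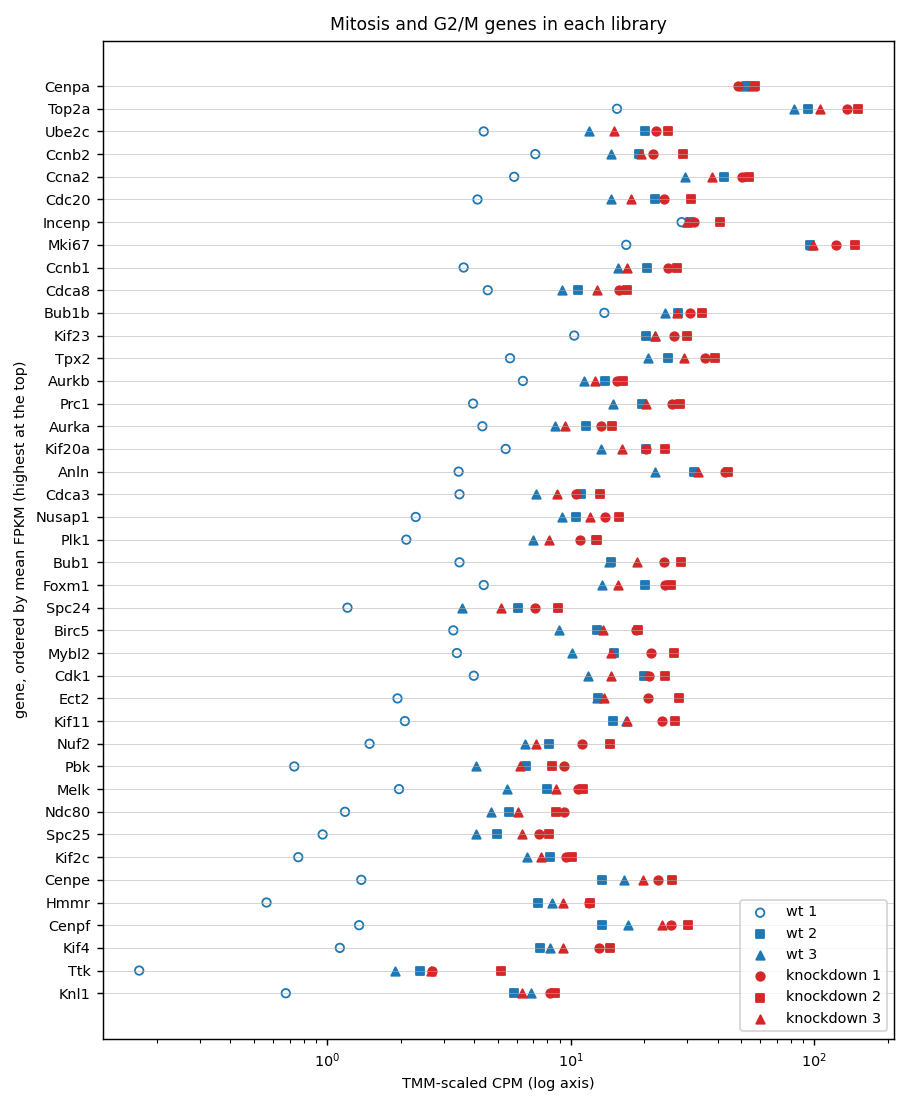
TMM-scaled CPM (horizontal log axis) of the 41 genes in each of the 6 libraries, ordered by mean FPKM from Cenpa at the top to Knl1 at the bottom, with wt in blue and labelled knockdown in red. The open circles of wt 1 lie far to the left for 35 genes, and the red squares of labelled knockdown 2 lie farthest right for 39.

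Per length, the levels differed widely between genes. Mean FPKM over the 6 libraries, a level per length of gene and per total count, was highest for Cenpa at 31.1, followed by Top2a (19.2), Ube2c (18.1) and Ccnb2 (12.3). It was lowest for Ttk (0.816) and Knl1 (0.461). The ratio of the highest to the lowest library in CPM had a median of 7.54 over the 41 genes, from 1.17 for Cenpa to 30.7 for Ttk. Ttk was also the 1 gene with fewer than 10 counts in a library, 6 in wt 1. In bulk RNA, fewer cells of a type and less RNA per cell cannot be told apart.

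The mitotic entry kinases and cyclins were Cdk1, Ccna2, Ccnb1, Ccnb2, Plk1, Aurka, Melk and Pbk. Their summed CPM was 29.7, 141 and 96.5 in wt and 163, 181 and 122 in labelled knockdown libraries, so wt 2 lay above labelled knockdown 3. Ccnb2, a B-type cyclin and by FPKM the highest of these 8 (chromosome 9, 70407692 to 70421547, minus strand, GRCm38, as for all loci here), had CPM of 7.14, 19.1 and 14.6 in wt and 21.7, 28.8 and 19.5 in labelled knockdown libraries. Its groups did not overlap, by a narrow margin, and its log2 fold change was 0.78 (SE 0.34, adjusted p = 0.329) and 0.47 without wt 1. Cdk1, the kinase that drives entry into mitosis (chromosome 10, 69335146 to 69352938, minus strand), had 3.99, 20.0 and 11.8 CPM in wt and 20.8, 24.4 and 14.6 CPM in labelled knockdown libraries. Labelled knockdown 3 lay below wt 2, and the log2 fold change was 0.74 (SE 0.51, adjusted p = 0.423) and 0.33 without wt 1. Ccnb1, the main cyclin partner of Cdk1 (chromosome 13, 100778650 to 100786570, minus strand), showed the same order of libraries as Cdk1. Its CPM was 3.63, 20.6 and 15.6 in wt and 25.1, 27.4 and 17.0 in labelled knockdown libraries, with a log2 fold change of 0.80 (SE 0.54, adjusted p = 0.417) and 0.35 without wt 1. Among the other 5, the S and G2 phase cyclin Ccna2, the centrosomal kinase Aurka, and the kinases Plk1, Melk and Pbk, log2 fold changes ran from 0.54 for Plk1 to 1.08 for Pbk, and Melk alone had groups without overlap. Plk1, which promotes spindle assembly and cytokinesis, had the smallest estimate of the 8 and, without wt 1, came to 0.10 (SE 0.29), while the other 4 came to between 0.31 and 0.60.

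The transcription factors of the program were Foxm1 and Mybl2, the gene for B-Myb. Foxm1 (chromosome 6, 128362967 to 128376146, plus strand) had CPM of 4.39, 20.1 and 13.4 in wt and 24.4, 25.7 and 15.7 in labelled knockdown libraries. Labelled knockdown 3 again lay between wt 3 and wt 2, and the log2 fold change was 0.80 (SE 0.49, adjusted p = 0.391) and 0.39 without wt 1. The Foxm1 gene overlaps the protein-coding gene Tex52 on the same strand, so some reads could belong to either. Mybl2 had a log2 fold change of 1.13 (SE 0.49, adjusted p = 0.328) and 0.73 without wt 1, with its groups overlapping only between labelled knockdown 3 (14.6 CPM) and wt 2 (15.0 CPM).

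The chromosomal passenger complex, made of the kinase Aurkb, its scaffold Incenp, Birc5 (survivin) and Cdca8 (borealin), corrects faulty attachment of chromosomes to the spindle. Its members did not vary alike. Cdca8 (chromosome 4, 124918465 to 124939311, minus strand) had the smallest p of all 41 genes (unadjusted p = 0.0232 in edgeR's quasi-likelihood test), with CPM of 4.56, 10.7 and 9.17 in wt and 15.7, 17.0 and 12.8 in labelled knockdown libraries. The groups stood apart, and the log2 fold change was 0.90 (SE 0.32, adjusted p = 0.328) and 0.61 without wt 1. Birc5 (chromosome 11, 117849251 to 117855743, plus strand) had 3.29, 12.9 and 8.90 CPM in wt and 18.5, 18.8 and 13.6 CPM in labelled knockdown libraries. Its groups did not overlap either, with a log2 fold change of 1.02 (SE 0.44, adjusted p = 0.328) and 0.64 without wt 1. Incenp (chromosome 19, 9872296 to 9899551, minus strand) was nearly level, with 28.5, 30.9 and 30.0 CPM in wt and 32.1, 40.96 and 29.9 CPM in labelled knockdown libraries. Labelled knockdown 2 stood above the other 5 libraries, which lay between 28.5 and 32.1 CPM, and the log2 fold change was 0.20 (SE 0.15, adjusted p = 0.458) and 0.17 without wt 1. Aurkb had a log2 fold change of 0.50 (SE 0.29) and 0.24 without wt 1, with overlapping groups.

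The centromere and kinetochore genes held both the steadiest gene of the list and the one with the highest estimate. Cenpa, the histone H3 variant that marks centromeres (chromosome 5, 30666777 to 30674830, plus strand), had CPM of 53.3, 52.5 and 51.5 in wt and 48.7, 57.2 and 55.9 in labelled knockdown libraries. Library wt 1 was not low for this gene, the groups overlapped fully, and the log2 fold change was 0.04 (SE 0.11, adjusted p = 0.845), with -0.011 when labelled knockdown 2 was left out. The large kinetochore protein gene Cenpf, chosen after its values were seen, had 1.35, 13.4 and 17.1 CPM in wt and 25.7, 30.1 and 23.8 CPM in labelled knockdown libraries. The groups did not overlap, and its log2 fold change was 1.32 (SE 0.71, adjusted p = 0.356) and 0.79 (SE 0.18) without wt 1. Between these lay Cenpe, the kinetochore motor, Knl1, the scaffold that recruits checkpoint proteins, and Ndc80, Nuf2, Spc24 and Spc25, the 4 subunits of the complex that grips microtubules. The 4 subunits had log2 fold changes from 0.96 for Spc24 to 1.12 for Spc25, and from 0.55 to 0.68 without wt 1. Of the 8 genes, Cenpe, Cenpf, Ndc80 and Spc25 had groups that did not overlap.

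The spindle checkpoint kinases Bub1, Bub1b and Ttk delay chromosome separation until every kinetochore is attached. Bub1 (chromosome 2, 127801122 to 127831865, minus strand) had CPM of 3.49, 14.6 and 14.4 in wt and 24.0, 28.3 and 18.8 in labelled knockdown libraries. The groups were apart, and the log2 fold change was 1.13 (SE 0.48, adjusted p = 0.328) and 0.70 without wt 1. Bub1b (chromosome 2, 118598211 to 118641591, plus strand), the highest of the 3 by FPKM, had 13.7, 27.5 and 24.3 CPM in wt and 30.9, 34.4 and 27.3 CPM in labelled knockdown libraries. Its labelled knockdown 3 was just below wt 2, with a log2 fold change of 0.50 (SE 0.26, adjusted p = 0.349) and 0.25 without wt 1. Ttk, the lowest of the 3 by FPKM, had a log2 fold change of 1.24 (SE 0.77) and 0.71 (SE 0.38) without wt 1.

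The spindle motors and microtubule factors Kif11, Kif2c, Kif4, Tpx2, Nusap1 and Hmmr build and shape the spindle. Tpx2, which activates Aurka and nucleates microtubules (chromosome 2, 152847964 to 152895321, plus strand), had CPM of 5.62, 25.0 and 20.7 in wt and 35.7, 39.2 and 29.1 in labelled knockdown libraries. Every labelled knockdown library stood above every wt library, and the log2 fold change was 1.02 (SE 0.47, adjusted p = 0.332) and 0.60 without wt 1. The other 5 genes, among them the bipolar spindle motor Kif11 and the microtubule depolymerase Kif2c, had log2 fold changes from 0.80 for Kif2c to 1.13 for Kif4, and from 0.29 to 0.64 without wt 1. In 5 of the 6 genes the groups did not overlap, the exception being Kif2c, whose labelled knockdown 3 (7.52 CPM) lay below wt 2 (8.17 CPM).

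At the central spindle and in cytokinesis act Kif20a, Kif23, Prc1, Ect2 and Anln. Kif23, a motor that bundles midzone microtubules (chromosome 9, 61915905 to 61946774, minus strand), had CPM of 10.3, 20.3 and 22.1 in wt and 26.5, 30.1 and 22.2 in labelled knockdown libraries. Labelled knockdown 3 and wt 3 were almost equal, so the absence of overlap was marginal, with a log2 fold change of 0.58 (SE 0.29, adjusted p = 0.341) and 0.31 without wt 1. The bundling factor Prc1, the RhoA activator Ect2 and the cortical scaffold Anln also had groups without overlap, and the motor Kif20a did not. The log2 fold changes of these 4 ran from 0.64 for Kif20a to 1.17 for Ect2, and from 0.27 to 0.69 without wt 1.

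The ubiquitin ligase factors were Cdc20, the activator of the anaphase-promoting complex (APC/C), Ube2c, the enzyme that starts its ubiquitin chains, and Cdca3, a trigger of mitotic entry. None of the 3 had groups without overlap. Ube2c (chromosome 2, 164769898 to 164778822, plus strand) had CPM of 4.39, 20.2 and 11.9 in wt and 22.4, 25.0 and 15.0 in labelled knockdown libraries. Labelled knockdown 3 was well below wt 2, and the log2 fold change was 0.78 (SE 0.49, adjusted p = 0.397) and 0.37 without wt 1. For Cdc20 and Cdca3 it was 0.83 (SE 0.53) and 0.58 (SE 0.40), and without wt 1 it was 0.40 and 0.24. Ube2c overlaps Tnnc2 and Cdc20 overlaps Elovl1, each on the opposite strand. In all, 9 of the 41 genes overlap a protein-coding gene on either strand, and whether counting used strand is not given in the sources used here.

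Top2a, the topoisomerase that untangles chromosomes, and Mki67, the surfactant of the mitotic chromosome surface, had mean FPKM of 19.2 and 9.64. Top2a (chromosome 11, 98992943 to 99024189, minus strand) had CPM of 15.5, 94.1 and 82.6 in wt and 136, 152 and 105 in labelled knockdown libraries. The groups did not overlap, with a log2 fold change of 1.03 (SE 0.56, adjusted p = 0.357) and 0.56 without wt 1. Mki67 (chromosome 7, 135689784 to 135716361, minus strand) had 16.9, 96.1 and 96.9 CPM in wt and 123, 146 and 98.6 CPM in labelled knockdown libraries. Labelled knockdown 3 exceeded wt 2 and wt 3 by little, and the log2 fold change was 0.81 (SE 0.56, adjusted p = 0.425) and 0.34 without wt 1.

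Other cell cycle genes, listed by function, gave a graded picture. In a list of 74 mitotic genes outside the 41, 69 estimates were higher and 5 lower, and the median log2 fold change was 0.76 (0.38 without wt 1). Of the 74, 32 had no overlap in the higher direction and 0 in the lower, beside 13.3% and 12.6% of all genes. Their extremes by p included Cenpu, a centromere protein, at 1.39 and the Cdk1 inhibitor kinase Wee1 at 0.85, and on the lower side the lamin Lmnb1 at -0.28 and the spindle regulator Psrc1 at -0.18 (-0.11 without wt 1). Of 46 genes of DNA replication and G1/S, 43 were higher and 3 lower, with a median of 0.60 (0.39 without wt 1). In this list 12 genes had no overlap in the higher direction and 1 in the lower. The thymidylate synthase gene Tyms was at 0.79 and the replication clamp Pcna at 0.36, while the transcription factor E2f2 was at -0.95 (-0.54 without wt 1) and the clamp loader subunit Rfc2 at -0.13 (0.0091 without wt 1, so its sign changed). By edgeR 0 genes of either list passed the adjusted threshold. At an unadjusted p under 0.05 there were 13 higher and 0 lower in the first list and 10 higher and 1 lower in the second. Of all genes, 6.9% were higher at that threshold, and 2112 of the 13884 tested passed it in either direction. DESeq2 called 1 gene of the first list, Cenpu, and 0 of the second.

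Lists of other cell cycle genes gave medians closer to that of all genes. The 16 APC/C subunits, the complex that Cdc20 and Ube2c serve, had 8 higher and 8 lower estimates, with a median of 0.00014 whose sign changed between settings. Cdc27 was at 0.56 and Anapc4 at 0.24 (0.28 and 0.13 without wt 1), and Anapc2 at -0.21 (-0.12 without wt 1) and Anapc10 at -0.24. The 10 DREAM and MuvB subunits, through which B-Myb acts, had 8 higher and 2 lower and a median of 0.048 (0.022 without wt 1), with Lin9 at 0.83, Lin54 at 0.32, Lin52 at -0.16 and Lin37 at -0.36. Without wt 1 these 4 genes were at 0.49, 0.23, -0.099 and -0.13. Among 14 tested cell cycle inhibitors the split was 7 and 7, with a median of -0.035 whose sign also changed between settings. E2f5 was at 0.53 and Tob1 at 0.22, against -0.47 for the Cdk4 and Cdk6 inhibitor Cdkn2d and -0.49 for the antiproliferative gene Btg2, both of which came to -0.17 without wt 1 (E2f5 0.34, Tob1 0.30). The 5 D-type cyclins and their kinases, which act in G1, had 4 higher and 1 lower estimates. Their median of 0.31 (0.20 without wt 1) was the farthest of these lists from that of all genes, 0.022. Cdk6 was at 0.43, Cdk4 at 0.31 and Ccnd3 at -0.66, and without wt 1 at 0.26, 0.20 and -0.35. In these 4 lists, too, edgeR and DESeq2 called 0 genes at the adjusted threshold. At an unadjusted p under 0.05 in edgeR only Ccnd3, which was lower, and 1 higher gene, Cdk6, passed. Among all 13884 genes tested, 6.9% were higher at that threshold and 2112 passed it in either direction.

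The sum of the 41 genes relative to that of the 46 replication genes was 0.363, 0.825 and 0.784 in wt and 0.857, 0.852 and 0.856 in labelled knockdown libraries. The ratio was almost constant in the labelled knockdown libraries and clearly lower in wt 1, where mitotic mRNAs were less abundant relative to replication mRNAs than elsewhere. The labelled knockdown ratios lay above those of wt 2 and wt 3 by a small margin.

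No sum of cell type markers had the full library order of the mitotic sum, but some came close to it or to its reverse. The fibroblast, T cell and epithelial or carcinoma sums had wt 1 as the lowest library, as the mitotic sum did. The T cell sum also shared labelled knockdown 2 as the highest. In the fibroblast and epithelial or carcinoma sums, labelled knockdown 3 lay below wt 2 and labelled knockdown 2 below labelled knockdown 1. Their order was otherwise that of the mitotic sum. Of the listed macrophage markers, Csf1r lay between 547 and 1612 CPM and Adgre1, the gene for F4/80, between 127 and 302 CPM. Both were highest in wt 1 and lowest in labelled knockdown 2. The lowest markers of this list were Mertk (5.13 to 9.52 CPM) and Aif1 (29.4 to 41.1 CPM). The summed CPM of 14 macrophage markers was 22944, 18333 and 17177 in wt and 13230, 10283 and 17042 in labelled knockdown libraries, and 14 of 14 had a lower estimate (median log2 fold change -0.52, and -0.45 without wt 1). From high to low this sum ran wt 1, wt 2, wt 3 and then labelled knockdown 3, 1 and 2. That is the reverse of the mitotic order, except that wt 2 and wt 3 changed places. The fibroblast markers had higher estimates in 12 of 12 (median 1.22, and without wt 1 in 11 of 12 with a median of 0.80). Their summed CPM was 46.2, 674 and 421 in wt and 984, 885 and 516 in labelled knockdown libraries. This sum was lowest in wt 1, as was the mitotic sum, and Col3a1 and Col6a3 had the largest shares of it in every library. Col1a1 (0.56 to 5.52 CPM), Col1a2 (0.24 to 2.59 CPM) and Postn (0.16 to 0.73 CPM) were low throughout and lowest in wt 3. T cell markers had higher estimates in 9 of 9 tested (median 1.26, and 1.04 without wt 1), with 35.6, 43.0 and 125 CPM in wt and 115, 280 and 99.7 CPM in labelled knockdown libraries. The 7 NK cell markers summed to 37.3 to 65.5 CPM in wt and 59.2 to 142 CPM in labelled knockdown libraries. The neutrophil markers had lower estimates in 8 of 8, at 1694 to 1895 CPM in wt and 731 to 1478 CPM in labelled knockdown libraries.

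Of the 10 epithelial or carcinoma markers, 7 were in the table and 4 were tested, and their sum was 36.1, 138 and 80.4 CPM in wt and 192, 183 and 129 CPM in labelled knockdown libraries. Of the 4 tested, 2 had higher and 2 lower estimates (median log2 fold change 0.17, and 0.068 without wt 1). Krt8, the largest share of the sum in every library but wt 1, was at 9.90, 117 and 59.1 CPM in wt and 171, 165 and 105 CPM in labelled knockdown libraries. Krt18 was at 0.93, 6.37 and 3.82 CPM in wt and 6.72, 7.06 and 5.01 CPM in labelled knockdown libraries. Cdh1, the largest share in wt 1, was at 24.3, 14.1 and 16.6 CPM in wt and 13.7, 9.43 and 18.2 CPM in labelled knockdown libraries. Krt7 had its highest level, 0.93 CPM, in wt 1, and Epcam was at 0.06 to 0.72 CPM, and Krt19 and Cldn4 were at 0 in 5 libraries each. Endothelial markers summed to 33.6 to 41.2 CPM in wt and 31.0 to 35.4 CPM in labelled knockdown libraries, B cell markers to 6.29 to 39.6 and 12.3 to 62.9 CPM, and dendritic cell markers to 214 to 367 and 239 to 339 CPM. The part of these cell types, and of wt 1, in the levels of the mitotic genes was not tested.

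**Figure D3:**
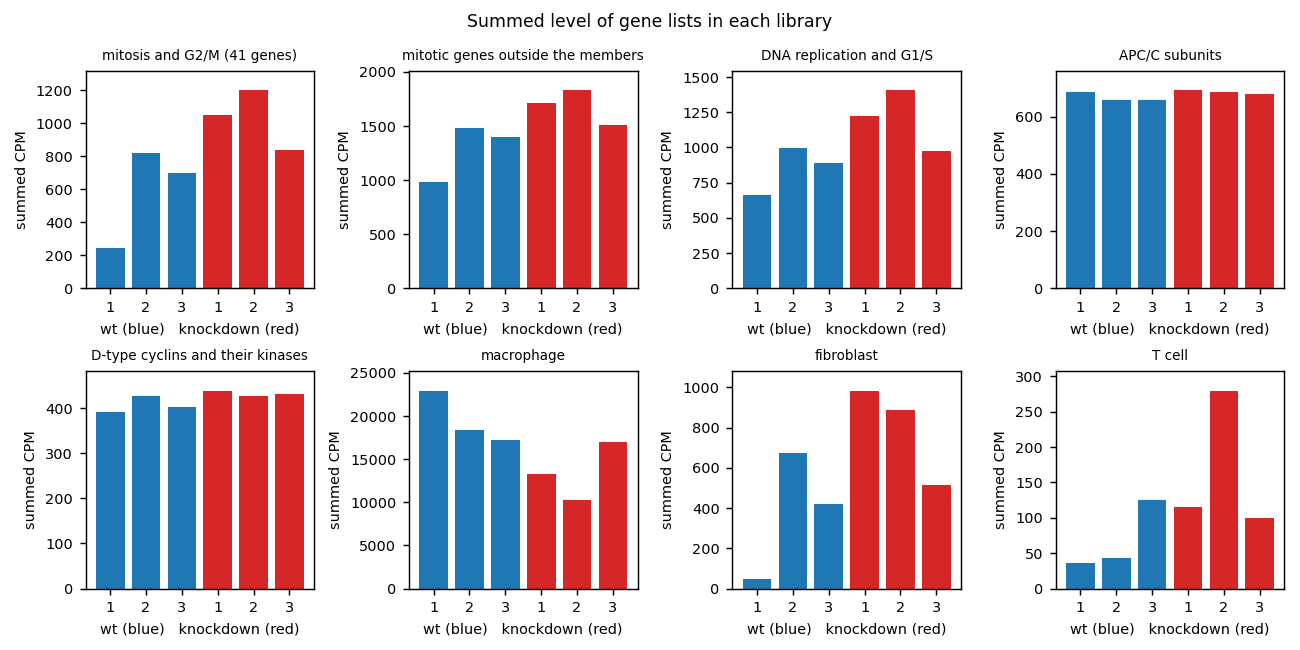
Summed TMM-scaled CPM (vertical axis, each panel with its own scale from 0) of the 41 genes, 4 other cell cycle lists and 3 cell type marker lists in each library, wt in blue and labelled knockdown in red. The mitotic sum runs from 241 in wt 1 to 1197 in labelled knockdown 2, the macrophage sum from 22944 in wt 1 down to 10283 in labelled knockdown 2, and the fibroblast sum is lowest in wt 1 at 46.2.

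Differences between single libraries were also related to the length of the genes, which ran from 931 bases for Ube2c to 13538 for Knl1. Across the 41 genes, which share the same libraries, the Spearman correlation of length with the log2 difference of wt 3 from wt 2 was 0.52, against 0.21 over all genes tested. For labelled knockdown 3 minus wt 2 it was 0.40 (0.12 over all genes), and for labelled knockdown 2 minus labelled knockdown 1 it was -0.10. Set against wt 3 in place of wt 2, labelled knockdown 3 gave -0.18 (-0.13 over all genes). A closer background is the 10717 genes with a mean CPM above the lowest of the 41. It gave 0.28 for wt 3 minus wt 2, 0.16 for labelled knockdown 3 minus wt 2 and -0.18 for labelled knockdown 3 minus wt 3. Set against wt 2, the 41 genes gave 0.46 for labelled knockdown 1, 0.42 for labelled knockdown 2 and -0.41 for wt 1 (0.11, 0.16 and -0.063 over all genes). The long genes Cenpf and Cenpe were higher in labelled knockdown 3 than in wt 2, by 0.82 and 0.55 on the log2 scale. The short genes Ube2c and Spc24 were lower there, at -0.43 and -0.23. Other genes departed from this trend, such as the long Mki67 at 0.04 and the short Cdca8 at 0.26. For the group difference, the correlation with length was 0.36 (0.11 over all genes), 0.22 without wt 1, 0.11 without wt 2 and 0.54 without wt 3 (0.16 over all genes). The part of length in which genes lacked overlap was not tested.

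**Figure D4:**
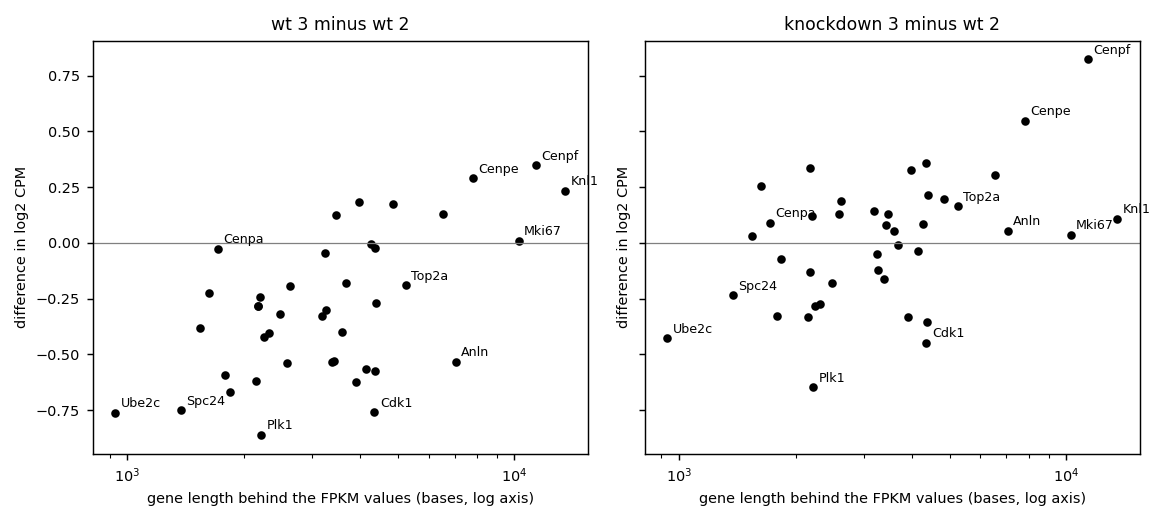
Log2 CPM difference (vertical axis) of wt 3 from wt 2 (left) and of labelled knockdown 3 from wt 2 (right) against gene length in bases (horizontal log axis), 1 point for each of the 41 genes. The long genes Cenpf and Cenpe lie above 0 in both panels and the short genes Ube2c and Spc24 below it, with Spearman correlations of 0.52 and 0.40. Not all genes follow: the long Anln is at -0.53 on the left and the short Cdca8 at 0.26 on the right.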

How the data were processed

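Libraries were grouped by the labels wt and knockdown, 3 each. The authors deposited raw counts per gene and FPKM values. Each FPKM value equals the count over the gene's length and the total of its library. The submitters' processing notes name mm10, while the aligner, counting tool and annotation are not given in the sources used here. Counts were fitted with edgeR 4.0.16 in R 4.3.3 (filterByExpr, TMM, glmQLFit, glmQLFTest), with Benjamini-Hochberg adjustment over 13884 genes and a threshold of 0.05. A prior count of 2 was added for log2 CPM, SDs are of TMM-scaled CPM, and lack of overlap compares CPM values. A count of 0 allows up to 3 counts, 0.0716 to 0.0846 CPM per library, for counting error only. Replicates are separate biosamples by the labels, and they differed by more than sampling noise (chi-square per gene 34.3 to 146). The mouse behind each library is not given. The study's legend for its RNA-seq heatmap names 2 individual mice, against 3 libraries per group here. Whether the 3 libraries of a group come from 3 different animals could not be settled.

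The genes and lists were chosen with earlier results of these data known. Values in every library are given for the gene with the highest mean FPKM in each role, for Mki67, Top2a, Cdk1, Ccnb1 and Foxm1, and for the 3 smallest p-values in each direction. Of each other cell cycle list, up to 2 genes with the smallest p in each direction are named. Alternatives were DESeq2 1.42.0, limma 3.58.1 on log2 of FPKM plus 1 or plus 0.1, RLE scaling, no filter, a replicate block and each library left out. Loci come from GENCODE for GRCm38, and promoter sequences from RefSeq for GRCm38.p6, matched by symbol. The edgeR step was tested on simulated data.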

Additional observations from a re-analysis of the deposited data

How the results depend on the processing

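Each group had 3 libraries, and wt 1 stood apart from the other wt libraries by more than the groups differed in the median of the 41 genes (-2.07 against 0.92 on the log2 scale). The 41 mitotic genes had 40 or 41 higher estimates and a median log2 fold change of 0.47 to 1.35 under the 14 alternatives. DESeq2 called 108 genes of all tested, and without wt 1 (chosen after seeing the data) 87, of which 1 was among the 41. The count without overlap ranged from 21 to 38 when libraries were left out one at a time, and was 37 without both wt 1 and labelled knockdown 3 (31.6% of all genes). The median of the APC/C subunits became -0.015 with RLE scaling, -0.014 with no filter and -0.015 with DESeq2, 0.12 and 0.15 with limma on FPKM plus 1 and plus 0.1, and ranged from -0.054 to 0.063 with libraries left out. That of the cell cycle inhibitors became 0.12 and 0.14 with limma on FPKM plus 1 and plus 0.1, and ranged from -0.15 to 0.016 with libraries left out. The log2 fold change of Cenpa ranged from -0.011 to 0.11 in the same way. The cause of these changes was not tested. limma on FPKM plus 0.1 moved the median of all genes from 0.022 to 0.16.

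With the replicate number as a replicate block, 0 of the 41 genes passed, 8 of the 41 were higher at an unadjusted p under 0.05 (5.43% of all genes) and the median of the 41 was 1.19. Same-numbered libraries deviated from their group means with correlations of -0.24, 0.06 and -0.34. With 3 libraries behind each mean and wt 1 far from the others, these values cannot show whether same-numbered libraries share a batch.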
